A study of Mus musculus with 8 samples.

Results

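Notch receptors, their ligands and the Hes and Hey genes that act downstream of them were measured in sorted cardiac mesenchymal stromal cells (cMSCs) of aged and young mice. Members were taken by name from the array files, as every probe outside the control set whose gene name was Notch1, Notch2, Notch3, Notch4, Jag1, Dll4, Hes1, Hey1, Hey2 or Heyl. These 10 genes had 15 of the 56605 distinct probes on the array, and 9 of the 10 could be tested among 20210 genes. The aged group was 4 pools of cMSCs from mice of 20 months, numbered replicates 1 to 4, and the young group was 4 pools from mice of 5 months, numbered replicates 2 to 5. The labels give male C57Bl/6 mice for all pools, with 3 animals to a pool and no genotype or treatment, and the code in the label of aged replicate 4 can also be read as fewer animals. The study kept C57Bl/6JRj mice and heterozygous CX3CR1gfp/+ CD45.1 reporter mice, and which of these gave the pools is not stated. The cells were CD45- CD31- Sca-1+ PDGFRα+ cells sorted from digested ventricles and were not cultured. Each pool was hybridised to its own Agilent array with 1 colour, so the values describe whole pools, and fewer cells of a type and less RNA per cell cannot be told apart.

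Notch proteins are receptors on the cell surface that are switched on by ligands of the Jagged and Delta-like families on a neighbouring cell. Ligand binding lets proteases cut the receptor, and its inner part travels to the nucleus, joins the DNA-binding protein RBPJ and switches on target genes, among them Hes and Hey genes, which encode transcriptional repressors of the basic helix-loop-helix class. In the heart and its vessels the pathway is known for its part in endothelial, mural and valve development.

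Levels are given as log2 of the processed signal relative to the 75th percentile of the same array, so that a difference of 1 is a doubling. Signal also depends on the probe, and no level is set against that of another gene. Fold changes are aged over young on the log2 scale, and a gene passed at a limma adjusted p under 0.05. No member passed in either direction. Of the 9 tested, 0 rose, where 2.36% of all genes tested rose, and 0 fell, where 0.792% of all genes fell. A probe well above background on all 8 arrays read 8 of the members. Of these, 2, Hey1 and Heyl, had all aged pools below all young pools, as did 4.0% of the 19166 genes so read. The same 2 had an unadjusted limma p under 0.05, against 13.5% of those genes. The median log2 fold change of the 8 was -0.079, with 5 below 0 and 3 above, and that of those genes was -0.0014. The aged pools of Hey2 also lay below its young pools, but its probe entered the test only through the young group, where it is high, and it is not counted here.

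**Figure D1:**
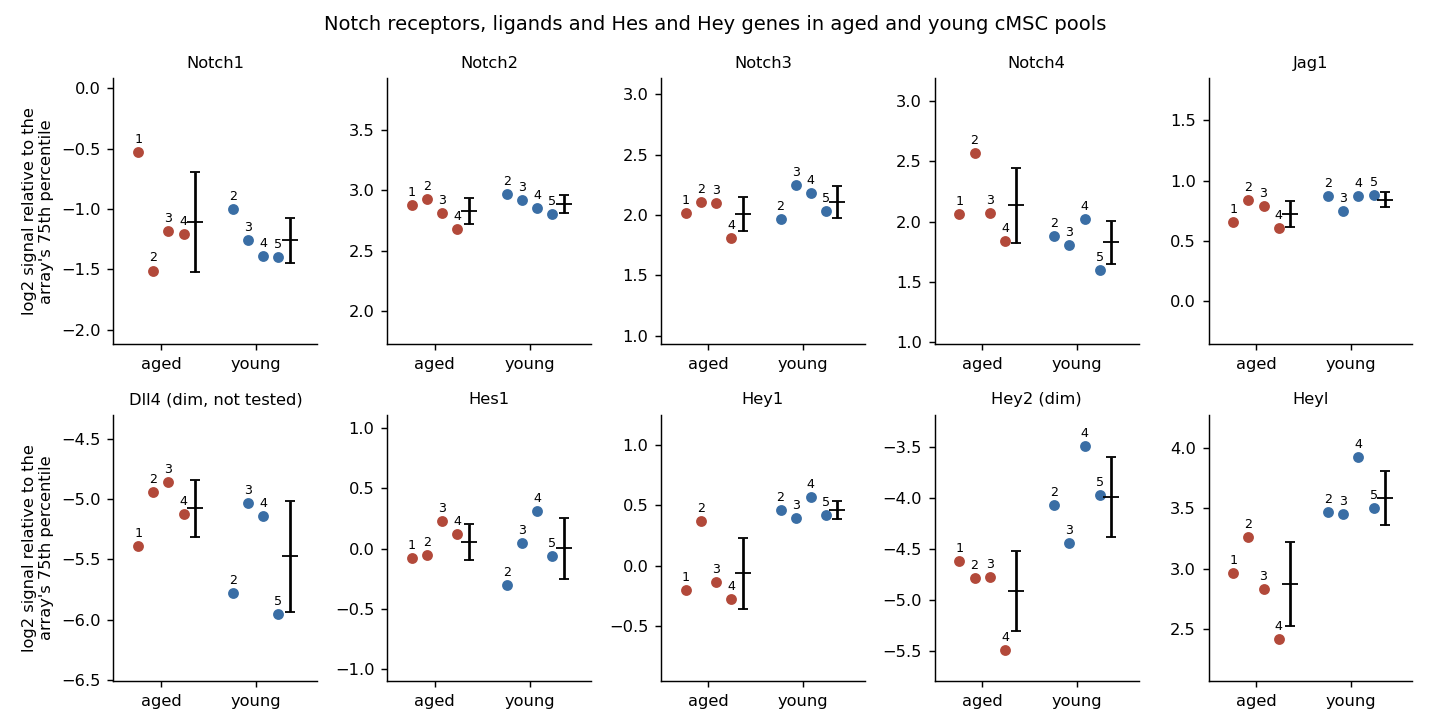
Level of each of the 10 genes by pool, as log2 signal relative to the array's 75th percentile (vertical axes, each gene on its own range), with aged pools in red, young pools in blue, replicate numbers above the points and black bars for the mean and SD of 4 pools. The aged pools of Hey1, Hey2 and Heyl lay wholly below their young pools, and the groups of the other 7 genes overlapped. Hey2 passed the filter through its young pools alone.

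Aged and young pools did not overlap in Hey1 and Heyl. Hey2, not counted above, also had no overlap. All of the Hey genes encode repressors, and Heyl is known from mouse and human vessels as a gene of smooth muscle cells and pericytes. The start of the probe that read each of them is printed here, 30 of its 60 bases, so that the transcript measured can be traced.
Hey1 probe: gatttgggctctaaaagtattgttttacag
Hey2 probe: ccagaggctcattgacaccaactcaaaaac
Heyl probe: aatcattttcttcaaggtctttgcccttct
The array files place these probes on mm9 at chr3:8663432-8663491 on the minus strand for Hey1, at chr10:30552729-30552788 on the minus strand for Hey2 and at chr4:122926975-122927034 on the plus strand for Heyl. They do not say which exon or untranslated region a probe lies in.

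Heyl had levels of 2.96, 3.26, 2.83 and 2.42 in aged replicates 1, 2, 3 and 4, against 3.47, 3.45, 3.92 and 3.50 in young replicates 2, 3, 4 and 5. Aged replicate 4 was the lowest pool and young replicate 4 the highest, and the highest aged pool lay 0.19 below the lowest young pool. The mean was 2.87 ± 0.35 in aged pools and 3.59 ± 0.22 in young pools (SD, n = 4 each). The log2 fold change was -0.72 with a standard error of 0.18 and a 95% confidence interval of -1.13 to -0.30, which put the aged level at 60.9% of the young level. The limma adjusted p was 0.0848, short of the threshold. Heyl was past it in the authors' log2 table (adjusted p = 0.0362), with limma's trend and robust options (0.0471) and with array weights (0.0466). Over the 22 alternative settings the limma adjusted p of Heyl ran from 0.0362 to 0.455. The exact permutation test gave an unadjusted two-sided p of 0.0286, the smallest that 4 pools against 4 allow. Any gene whose groups do not overlap receives this p, so it only restates the separation.

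Hey1 had levels of -0.20, 0.37, -0.14 and -0.28 in aged replicates 1, 2, 3 and 4, against 0.46, 0.39, 0.57 and 0.42 in young replicates 2, 3, 4 and 5. The young pools lay close together, and 3 of the aged pools lay well below them, whereas aged replicate 2 came within 0.020 of the lowest young pool. Means were -0.066 ± 0.29 in aged pools and 0.46 ± 0.078 in young pools (SD, n = 4 each). The log2 fold change was -0.53 with a standard error of 0.14 (95% confidence interval -0.85 to -0.20, limma adjusted p = 0.0990), or 69.5% of the young level. Without aged replicate 2, the aged pool nearest the young pools, it was -0.67 with a limma adjusted p of 0.0107. With array weights it was -0.56 with an adjusted p of 0.0405. Over the 22 alternative settings the limma adjusted p of Hey1 ran from 0.0107 to 0.466. The unadjusted exact permutation p was again 0.0286, which restates that the groups do not overlap.

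Hey2 was read near the background. Its probe was well above background on 2 of 4 aged arrays and on 4 of 4 young arrays, and it entered the test through the young group. Levels were -4.62, -4.78, -4.77 and -5.49 in aged replicates 1, 2, 3 and 4, against -4.07, -4.44, -3.49 and -3.97 in young replicates 2, 3, 4 and 5. As for Heyl, aged replicate 4 was lowest and young replicate 4 highest, and the groups were 0.18 apart at their nearest pools. The mean was -4.91 ± 0.39 in aged pools and -3.99 ± 0.39 in young pools (SD, n = 4 each). Its log2 fold change was -0.92, given as a description because the gene came into the test by its young level. The size depended on how background was treated, with a log2 fold change of -0.24 after normexp background correction and of -0.40 in the authors' table. A further probe for Heyl, at chr4:122917783-122917842 on mm9, was well above background on 0 of 4 aged arrays and on 1 of 4 young arrays and gives no level.

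**Figure D2:**
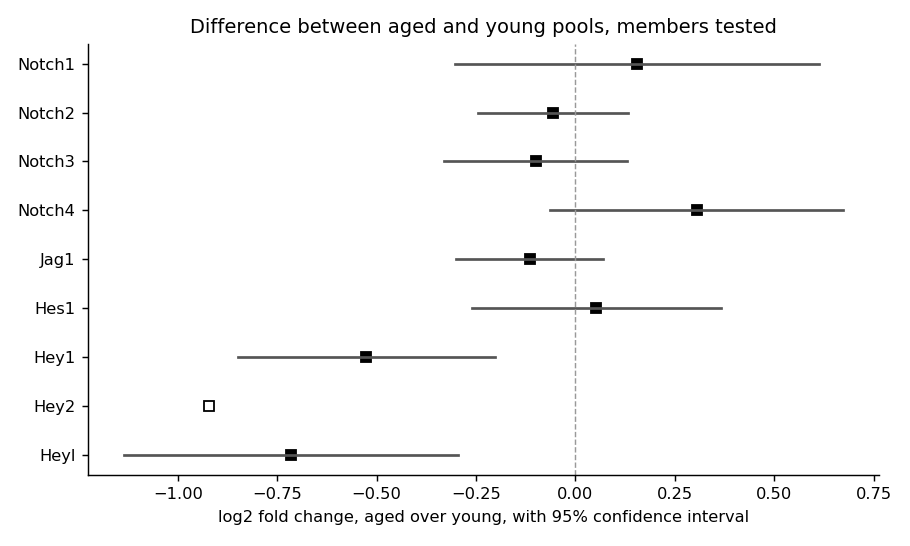
Log2 fold change, aged over young, of the 9 members tested (squares, horizontal axis), with 95% confidence intervals from the limma fit on 4 aged and 4 young pools (lines), and Hey2, which passed the filter through its young pools alone, as an open square with no interval. The intervals of Hey1 and Heyl lay below 0 before adjustment over all genes, and those of the other 6 members included 0.

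Each row of the slide held 2 aged and 2 young arrays. Since the groups of the 3 Hey genes do not overlap, the sign within a row is fixed, and only the size is given. The aged-minus-young difference was -0.78 in the first row and -0.65 in the second for Heyl, -0.65 and -0.40 for Hey1, and -0.85 and -0.99 for Hey2. The 75th percentile that scaled the arrays covered about the same range in both groups, 509 to 793 intensity units in aged pools and 479 to 816 in young pools.

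The fourth target gene, Hes1, a repressor that many cells switch on when Notch is active, showed no such separation. Its levels were -0.08, -0.05, 0.23 and 0.12 in aged replicates 1, 2, 3 and 4, against -0.30, 0.05, 0.31 and -0.06 in young replicates 2, 3, 4 and 5, and young replicates 2 and 4 were the extremes. Aged pools differed from young pools by 0.053 with a standard error of 0.14, and the 95% confidence interval of -0.26 to 0.37 allowed a shift of either sign. Its sign turned without aged replicate 3 (-0.0064) and without young replicate 2 (-0.048).

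Promoter letters were looked up for the members because RBPJ binds a short motif with the core GTGGGAA, which reads TTCCCAC on the other strand. The RefSeq promoter table (GRCm38.p6), which holds 250 bases before and 50 after each start site, had an entry for 7 members: the 4 receptors, Jag1, Dll4 and Hey2. Hes1, Hey1 and Heyl had no entry. The core was found in 1 of the 7, Hey2, whose promoter at chr10:30842734-30843033 (minus strand) is shown with the 2 matches in capitals.
Hey2 promoter: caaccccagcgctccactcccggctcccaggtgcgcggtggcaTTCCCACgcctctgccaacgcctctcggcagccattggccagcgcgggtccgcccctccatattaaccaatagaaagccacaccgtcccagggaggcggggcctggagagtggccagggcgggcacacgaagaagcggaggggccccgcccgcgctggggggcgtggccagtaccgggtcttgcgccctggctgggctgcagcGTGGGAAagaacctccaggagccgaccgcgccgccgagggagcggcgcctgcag
The matches begin at positions -207 and -4 from the start site and do not overlap. Of all 32851 promoters in that table, 6.38% hold the core on either strand at least once and 0.256% hold 2 or more. A match of letters is not a measured binding site, and no binding was measured in these pools.

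The receptors did not separate by age. Notch4, a receptor best known from endothelial cells, had levels of 2.06, 2.57, 2.07 and 1.84 in aged replicates 1, 2, 3 and 4, against 1.88, 1.81, 2.02 and 1.60 in young replicates 2, 3, 4 and 5. Aged replicate 2 was the highest pool, and aged replicate 4 lay within the young range. The log2 fold change of 0.30 (standard error 0.16, 95% confidence interval -0.063 to 0.67) had a limma adjusted p of 0.474, and without aged replicate 2 it was 0.16.

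Notch4 had 3 probes that did not behave alike. The starts of 2 of them are shown because both carry the same gene name.
Notch4 bright probe: agtcactgctatctccgagaaccccaaact
Notch4 distant probe: ggttaggtatcaatgttttgatctaagctt
The bright probe, which gave the values above, lies at chr17:34725384-34725442 on mm9. The distant probe lies 379386 bases away at chr17:35104770-35104829 by the array's own coordinates, and it was well above background on 0 of 8 arrays. The remaining probe, at chr17:34721567-34721775, was well above background on 0 of 4 aged arrays and 2 of 4 young arrays. No fold could be given for either.

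Notch1, a receptor found in many cell types, had levels of -0.53, -1.51, -1.18 and -1.21 in aged replicates 1, 2, 3 and 4, against -1.0, -1.26, -1.39 and -1.40 in young replicates 2, 3, 4 and 5. The aged group held both the highest and the lowest pool. Its log2 fold change was 0.15 with a standard error of 0.20 and an interval of -0.30 to 0.61, and it was -0.040 without aged replicate 1. The difference was 0.46 in the first slide row and -0.16 in the second.

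Notch2 had levels of 2.88, 2.93, 2.81 and 2.68 in aged replicates 1, 2, 3 and 4, against 2.97, 2.92, 2.85 and 2.80 in young replicates 2, 3, 4 and 5. All 8 pools lay close together, with a log2 fold change of -0.057 and a standard error of 0.083. The interval of -0.25 to 0.13 bounds any difference at the level of whole pools.

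Notch3, the receptor known from vascular smooth muscle cells and pericytes, had levels of 2.02, 2.11, 2.10 and 1.81 in aged replicates 1, 2, 3 and 4, against 1.97, 2.25, 2.18 and 2.03 in young replicates 2, 3, 4 and 5. Aged replicate 4 was again the lowest pool. A log2 fold change of -0.10 was found, with a standard error of 0.10 and an interval of -0.33 to 0.13. Second probes for Notch1 and Notch2 were well above background on 3 and on 0 of 8 arrays and were not tested.

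Neither ligand gave a call. Jag1, a Jagged ligand, had levels of 0.66, 0.84, 0.79 and 0.61 in aged replicates 1, 2, 3 and 4, against 0.87, 0.75, 0.87 and 0.88 in young replicates 2, 3, 4 and 5. Young replicate 3 stood below the other 3 young pools and within the aged range. Its log2 fold change was -0.12 with a standard error of 0.081 (95% confidence interval -0.30 to 0.068, limma adjusted p = 0.641). Dll4, the Delta-like ligand of growing vessels, was well above background on 1 of 4 aged arrays and 1 of 4 young arrays. Its measured signals were -5.39, -4.94, -4.86 and -5.12 in aged replicates 1, 2, 3 and 4, against -5.78, -5.03, -5.14 and -5.95 in young replicates 2, 3, 4 and 5, and the groups overlapped. It did not pass the filter on dim probes, and no fold is drawn from these signals.

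How the members varied together was asked after the mean of each group had been taken out, so that the age difference itself could not produce a relation. The 9 members tested form 36 pairs, each over 8 pools with 576 rearrangements of pools within groups. Pearson's r was over 0.7 in size in 6 pairs, all positive. None had an adjusted permutation p under 0.05. The smallest adjusted p was 0.300, and a single pair at the smallest p that the rearrangements allow, 0.00174, would be adjusted to 0.0625.

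Heyl and Hey2 deviated together with r = 0.83 (exact permutation p = 0.0260, adjusted 0.300) and rho = 0.86 (exact permutation p = 0.0365, adjusted 0.656). For Heyl, the deviations were 0.09, 0.39, -0.04 and -0.45 in aged replicates 1, 2, 3 and 4 and -0.11, -0.14, 0.33 and -0.09 in young replicates 2, 3, 4 and 5. For Hey2, they were 0.29, 0.14, 0.15 and -0.58 in the aged pools and -0.08, -0.45, 0.50 and 0.03 in the young pools, in the same order. Aged replicate 4 was thus lowest and young replicate 4 highest for both within their own groups. Without the 2 pools farthest from the median of Hey2, aged replicate 4 and young replicate 3, r was 0.67. After normexp background correction r was -0.59, so that the relation did not hold under that correction.

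Heyl and Hey1 had r = 0.81 (exact permutation p = 0.0417, adjusted 0.300) and rho = 0.60 (exact permutation p = 0.189, adjusted 0.696). Without aged replicate 2 and young replicate 4, the pools farthest from the median of Hey1, r was 0.50. Under the other scalings, normexp and the authors' table, r of this pair stayed between 0.78 and 0.90. Hey1 and Hey2 had a lower r of 0.43 (exact permutation p = 0.323, adjusted 0.607) with rho = 0.31 (exact permutation p = 0.432, adjusted 0.696), and r was -0.77 after normexp.

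Of the receptors, Notch4 had the highest r with each Hey gene, though less so with Hey2. Its r was 0.92 with Hey1 (exact permutation p = 0.00868, adjusted 0.300; rho = 0.86, exact permutation p = 0.0208, adjusted 0.656) and 0.86 with Heyl (exact permutation p = 0.0382, adjusted 0.300; rho = 0.62, exact permutation p = 0.132, adjusted 0.696). Without aged replicates 2 and 4 they were 0.69 and 0.63. With Hey2 it was 0.50 (exact permutation p = 0.238, adjusted 0.607; rho = 0.38, exact permutation p = 0.387, adjusted 0.696), and 0.33 without those pools. The other 2 pairs over 0.7 were Jag1 with Hey1, at 0.77 (exact permutation p = 0.0243, adjusted 0.300; rho = 0.62, exact permutation p = 0.134, adjusted 0.696), and Notch2 with Notch4, at 0.72 (exact permutation p = 0.0972, adjusted 0.531; rho = 0.69, exact permutation p = 0.0990, adjusted 0.696).

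The same pools also differed in array brightness. Deviations of the log2 75th percentile had r = 0.87 with Notch4 (exact permutation p = 0.00174, adjusted over 36 relations 0.0625), 0.78 with Hey1 (exact permutation p = 0.00347, adjusted 0.0625) and 0.80 with Heyl (exact permutation p = 0.0174, adjusted 0.156). The corresponding rho values were 0.79 (exact permutation p = 0.00868, adjusted 0.219), 0.60 (exact permutation p = 0.0226, adjusted 0.234) and 0.67 (exact permutation p = 0.0573, adjusted 0.344). Aged replicate 2 and young replicate 4 were the brightest arrays of their groups, at 793 and 816, and aged replicate 4 was the dimmest aged array, at 509. Without those 2 brightest arrays, r was 0.67, 0.41 and 0.29 in the same order of genes. The 36 relations also set the 9 members against the mean levels of the mural, cardiomyocyte and endothelial marker lists, and none of them had an adjusted permutation p under 0.05. The mean level of mural markers had r = 0.88 with Notch4 (exact permutation p = 0.0174, adjusted 0.156; rho = 0.88, exact permutation p = 0.0122, adjusted 0.219), 0.85 with Notch2 (exact permutation p = 0.0243, adjusted 0.175; rho = 0.83, exact permutation p = 0.0260, adjusted 0.234) and 0.77 with Hey1 (exact permutation p = 0.0799, adjusted 0.426; rho = 0.67, exact permutation p = 0.0538, adjusted 0.344). Without aged replicate 2 and young replicate 5 these were 0.68, 0.77 and 0.63. That of cardiomyocyte markers had r = 0.71 with Heyl (exact permutation p = 0.127, adjusted 0.426; rho = 0.69, exact permutation p = 0.0920, adjusted 0.469), which was -0.028 without aged replicates 2 and 4 and so rested on them. The part of array brightness or of these cells in the shared deviations was not tested. With arrays scaled to their median in place of the 75th percentile, 19 pairs were over 0.7.

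**Figure D3:**
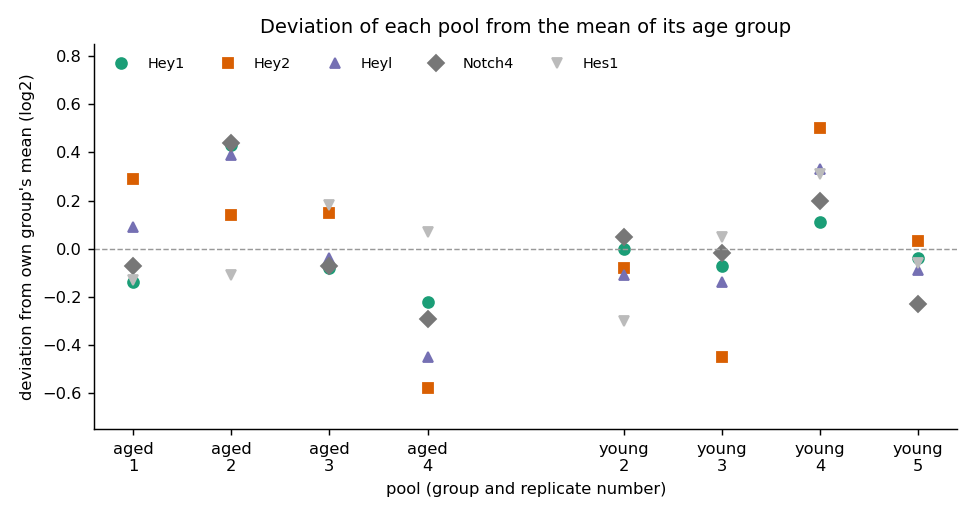
Deviation of each pool from the mean of its own age group, on the log2 scale (vertical axis), for Hey1, Hey2, Heyl, Notch4 and Hes1 in the 4 aged and the 4 young pools (horizontal axis). Aged replicate 4 lay lowest among the aged pools for Hey1, Hey2, Heyl and Notch4, and young replicate 4 lay highest among the young pools for all 5 genes.

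Between members whose groups overlapped, deviations need not be taken from group means. Over the 15 pairs of Notch1, Notch2, Notch3, Notch4, Jag1 and Hes1, the highest r over the 8 pools was 0.54, of Notch2 with Notch3 (exact permutation p = 0.163, adjusted 0.769; rho = 0.26, exact permutation p = 0.536, adjusted 0.840). The lowest was -0.54, of Notch2 with Hes1 (exact permutation p = 0.166, adjusted 0.769; rho = -0.50, exact permutation p = 0.216, adjusted 0.840). None of the 15 pairs was past the threshold.

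Among all 13775 other genes with a symbol, those whose levels over the 8 pools were most like Heyl were Afg3l1 with r = 0.991 and rho = 0.976, Zhx3 with r = 0.989 and rho = 1, and Eps15 with r = 0.987 and rho = 0.976. Those most like Hey2 were Zfp422 with r = 0.977 and rho = 0.929, Ddr2, a collagen receptor, with r = 0.975 and rho = 0.857, and Colgalt2, a galactosyltransferase of collagen, with r = 0.975 and rho = 0.929. These values include the difference between aged and young pools, are the highest of 13775 with no test, and describe likeness alone. None of the 6 genes passed the test between ages. Hey2 itself was read near the background and entered the test through its young pools. Heyl ranked 27 and Hey1 629 among the genes most like Hey2, and Hey2 and Hey1 ranked 83 and 93 among those most like Heyl.

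The rest of the pathway was followed through 47 further genes, listed by role, of which 43 could be tested. None passed, with 0 that rose, against 2.36% of all genes tested, and 0 that fell, against 0.792%. An unadjusted limma p under 0.05 was reached by 4, among them Lfng, Rfng and Dtx1, against 14.1% of all genes tested. The median log2 fold change of the 43 was -0.051, with 26 below 0 and 17 above. The ligands Dll3 and Jag2, the feedback inhibitor Nrarp and Hes3 were too dim to be tested.

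Receptor glycosylation held the largest positive value. The Fringe enzymes add sugars to Notch receptors and so change which ligands they answer to. Lfng, 1 of the 3 Fringe genes, had levels of -2.89, -2.89, -2.92 and -3.04 in aged replicates 1, 2, 3 and 4, against -3.06, -3.41, -3.52 and -3.80 in young replicates 2, 3, 4 and 5. All aged pools lay above all young pools, by a narrow margin at young replicate 2. Between the groups the log2 fold change was 0.51 with a standard error of 0.14 (limma adjusted p = 0.118), and without young replicate 2 it passed with 0.64 (limma adjusted p = 0.0371). Mfng had a log2 fold change of 0.28 with a standard error of 0.26, its groups overlapping. Rfng, named here after its value was seen, had -0.28 with a standard error of 0.090 (limma adjusted p = 0.167).

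The genes that cut, relay or end the signal gave no call. Among 9 genes of receptor cleavage, none of which passed, Psen2, a gene of the gamma-secretase complex, gave 0.11 on the log2 scale with a standard error of 0.068 (limma adjusted p = 0.585). Among 9 genes of the nuclear complex and its corepressors, none passed either, and Maml3, a coactivator of the Mastermind family, had a log2 fold change of 0.16 (limma adjusted p = 0.849). Rbpj itself, added after its value was seen, had 0.16 with a standard error of 0.084 (limma adjusted p = 0.491).

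Of 13 tested ubiquitin ligases, endocytic genes and inhibitors, Dtx1, a Deltex ubiquitin ligase, had the largest value. Its levels were -4.31, -3.96, -4.51 and -4.86 in aged replicates 1, 2, 3 and 4, against -4.39, -3.46, -3.65 and -3.39 in young replicates 2, 3, 4 and 5. Young replicate 2 lay among the aged pools, and the log2 fold change of -0.69 had a standard error of 0.26 (limma adjusted p = 0.253). Neurl1b, a ligase that acts on ligands, had 0.32 with a standard error of 0.61, its young group spread by replicate 5 at -2.47. Of the ligand-like genes, Dlk1 had -0.39 with a standard error of 0.36 and Dlk2 -0.096 with a standard error of 0.26. Of the other Hes genes, Hes5 had 0.27 with a standard error of 0.42 and Hes2 had 0.23 with a standard error of 0.18.

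**Figure D4:**
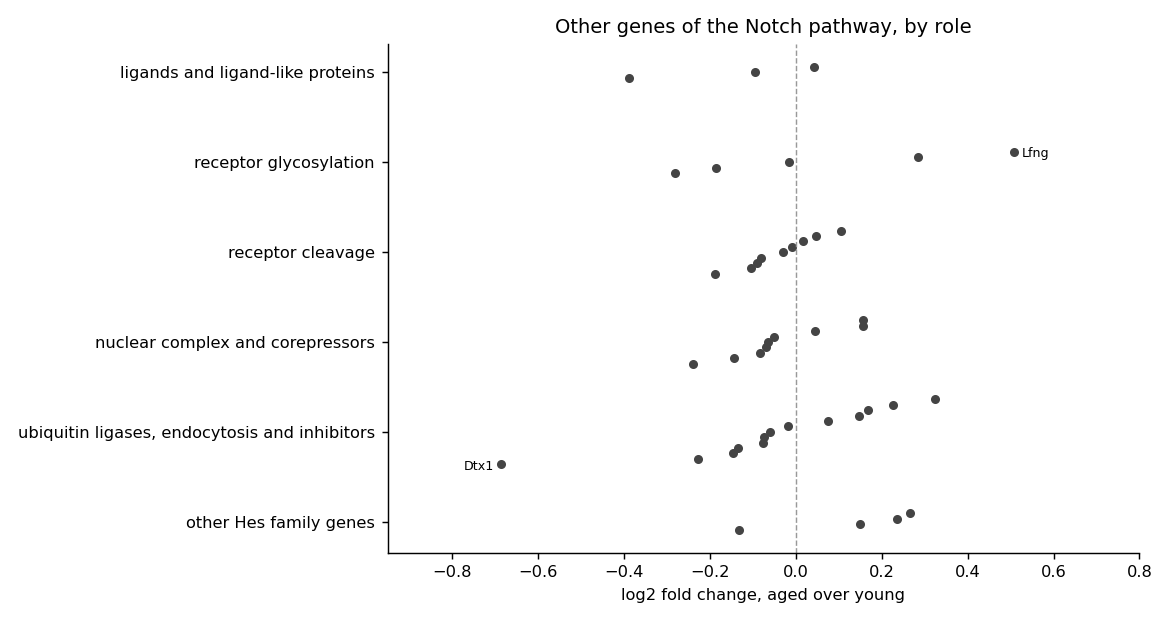
Log2 fold change, aged over young, of the 43 other genes of the Notch pathway that were tested (points, horizontal axis), in 6 groups by role (vertical axis), with the lowest and the highest gene of all named. None passed the test, and the values ran from -0.69 for Dtx1 to 0.51 for Lfng.

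Markers of other cells were read beside these results, because Notch genes are also known from endothelial and mural cells. The sort markers Pdgfra and Ly6a, the gene of Sca-1, were well above background on all 8 arrays, and so were Pecam1 (CD31) and Ptprc (CD45), markers of cells that the sort removed. Over all genes tested, 2.36% rose and 0.792% fell. None of the 17 endothelial markers passed. Their summed signal relative to the 75th percentile was 19.1 to 29.3 in aged pools and 20.0 to 26.6 in young pools, and Pecam1, Cdh5 and Kdr had log2 fold changes of 0.024, -0.14 and 0.067. Of 15 mural markers, 10 had a fold change below 0 and none fell, Rgs4 rose (1.18, limma adjusted p = 0.0245), and Rgs5, Pdgfrb and Cspg4 had values of -0.56, 0.0072 and -0.24. An unadjusted limma p under 0.05 was reached by 5 of the 15, against 14.1% of all genes tested. Besides Rgs4 and Rgs5 these were Myh11 (-0.62), Cnn1 (-1.03) and Des (-0.37), named after their values were seen. Cnn1 was well above background on 3 of 4 aged arrays and entered the test through the young group, where it is high. Both mural counts, the 10 below 0 and the 5, include it. The mural sum was 63.2 to 69.3 in aged pools and 67.2 to 72.8 in young pools. Each sum given here mainly follows the brightest probes of its list, such as Pdgfrb among mural and Itgam among leukocyte markers. All 9 tested cardiomyocyte markers, Pln among them, were below 0, and Tnni3 fell (-0.32, limma adjusted p = 0.0427). Pln was also past the threshold (-0.90, limma adjusted p = 0.0447). Its probe was well above background on 2 of 4 aged and 4 of 4 young arrays. Like Hey2, it entered the test through the young group, where it is high, and it is not counted as a gene that fell. The sum and the mean level of the cardiomyocyte list do include it. The cardiomyocyte sum of 8.19 to 12.3 in aged pools lay below that of 12.7 to 15.0 in young pools. The first 3 cardiomyocyte markers, Myh6, Tnnt2 and Actc1, had -0.32, -0.47 and -0.54. Of the 9, 7 had an unadjusted limma p under 0.05, Pln among them, against 14.1% of all genes tested. The same was so for 1 of 17 endothelial, 2 of 11 leukocyte and 6 of 12 cMSC and fibroblast markers. Of 11 tested leukocyte markers, 10 were above 0 and Cd14 rose (0.62, limma adjusted p = 0.00457), with a sum of 32.5 to 49.1 in aged pools and 26.2 to 38.9 in young pools, and with 0.068, 0.099 and 0.066 for Ptprc, Cd68 and Csf1r. Of 12 cMSC and fibroblast markers, Pdpn rose (0.39, limma adjusted p = 0.0335) and Thy1 fell (-0.71, limma adjusted p = 0.0478), while Pdgfra, Ly6a and Tcf21 had -0.21, 0.67 and -0.0042. Of the Schwann and mesothelial lists 3 and 2 genes were tested and none passed. The 2 mesothelial genes had log2 fold changes of -0.63 (Msln, standard error 0.75) and 0.75 (Wt1, standard error 0.37). Msln was well above background on 3 of 4 aged arrays and entered the test through the young group. The part of these cells in the lower Hey levels was not tested.

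Across settings, the calls of Hey1 and Heyl changed. Since the groups of the Hey genes do not overlap, leaving out 1 pool or weighting arrays could not turn their sign. Only sizes and calls are given. Over 22 alternatives, Heyl ranged between -0.85 and -0.57 and passed in 3, and Hey1 ranged between -0.67 and -0.45 and passed in 2. Hey2 could be fitted in 21, ranged between -1.07 and -0.24 and passed in none.

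**Figure D5:**
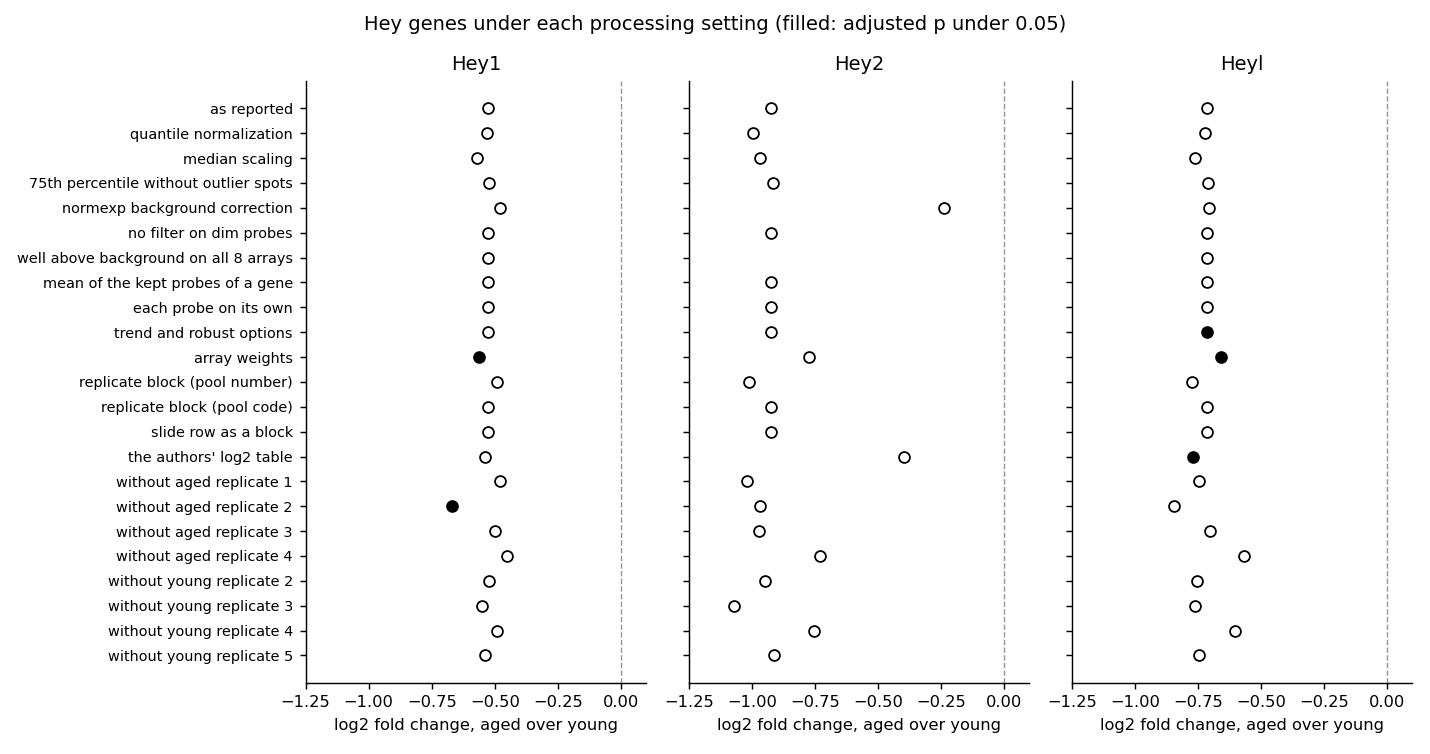
Log2 fold change, aged over young, of Hey1, Hey2 and Heyl (horizontal axes) as reported and under each alternative setting (rows), with filled points where the limma adjusted p was under 0.05. Heyl has 3 filled points and Hey1 has 2, and the values of Hey2 nearest 0 are those after normexp correction and in the authors' table.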

How the data were processed

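RNA of 8 cMSC pools was labelled with Cy3 and hybridised to Agilent mouse expression arrays on 1 slide. The authors deposited each array's scanner output, with intensity values extracted by Agilent Feature Extraction 10.10.1.1, whose processed signal is background-subtracted but not normalized between arrays. They also deposited a log2 table of the same arrays with equal medians of 8.12, made with limma by steps that the sources used here do not fully state. It served as an alternative.

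Control spots and spots marked as outliers were left out, log2 processed signals were set relative to each array's 75th percentile, and replicate spots were reduced to their mean. The filter asked that a probe be well above background on each of the 4 aged or each of the 4 young arrays, and a gene was read by the brightest probe that passed. Names came from accessions in a GRCm38.p6 table or from the array files, whose positions are on mm9. Between 57.8% and 63.4% of spots were well above background, and the number of arrays limits the precision.

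Groups and replicate numbers were taken from the labels. The comparison was fitted by lmFit and eBayes of limma 3.58.1 (R 4.3.3) with Benjamini-Hochberg adjustment over 20210 genes, and its p-values measure the spread between pools. Exact permutation tests were two-sided and used all 70 assignments of pools or, for correlations, all rearrangements within groups or all orders of the 8 pools. Dll4, not well above background on 6 arrays, was left out of the pairs. Tables used pandas 2.3.3 and numpy 2.4.6, and scripts were tested on simulated data.

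The members, gene lists and tests were chosen with earlier results of these data known. Named genes were all members, pathway genes that passed or else the 2 of a role list with the largest change, the first 3 genes of each marker list with those that passed, and the 3 genes most like Heyl and Hey2, the members with the smallest p. Alternatives were other scalings, background corrections, filters, probe rules, limma options, blocks, the authors' table and leaving out each pool, and a 75th percentile without outlier spots was added after seeing the data. Some genes that this rule names are not reported here.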

Additional observations from a re-analysis of the deposited data

Results flagged for a closer look

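In groups of 4 pools, a pool was singled out where its gap to the nearest other pool took up more of the group's range than Dixon's 95% critical value for 4. Chance gives this in about 1 in 20 groups, and 30 groups were examined, those of the 15 probes. Heyl was higher in young replicate 4 than in the other young pools, at 3.92 against 3.50 for the nearest, and the gap was 0.897 of the range. Jag1 was lower in young replicate 3, at 0.75 against 0.87 for the nearest, with a gap of 0.920 of the range. The second probe of Notch1, which was not well above background on most arrays, was lower in aged replicate 2, at -5.95 against -4.89, with a gap of 0.877 of the range. Without young replicate 4 the log2 fold change of Heyl was -0.60.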

How the results depend on the processing

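The threshold lay close to the Hey genes. The count of members that fell was 0 as reported, 1 with limma's trend and robust options (Heyl, -0.72) and in the authors' log2 table (Heyl, -0.77), and 2 with array weights (Hey1, -0.56, and Heyl, -0.66). Over the fits that left out 1 pool it was 0 to 1, with Hey1 past the threshold without aged replicate 2, and the count of pathway genes that rose was 0 to 1, with Lfng past it without young replicate 2. Leaving out 1 pool gave log2 fold changes of -0.67 to -0.45 for Hey1, -0.040 to 0.29 for Notch1, -0.093 to -0.0095 for Notch2, -0.15 to -0.034 for Notch3, 0.16 to 0.40 for Notch4, -0.15 to -0.078 for Jag1 and -0.048 to 0.16 for Hes1. The sign of Notch1 turned without aged replicate 1 and that of Hes1 without aged replicate 3 and without young replicate 2. Pairs of members with r over 0.7 numbered 6 as reported, 4 with quantile normalization, 5 in the authors' table, 19 with median scaling, 11 after normexp correction and 6 to 10 with 1 pool left out, 10 of them without young replicate 2 and without young replicate 3. The cause was not tested. The percentile without outlier spots, chosen after seeing the data, changed no call.

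Deviations of the 3 same-numbered pairs of pools correlated at 0.18, -0.17 and -0.27, and the pool code adds 1 pair, at 0.14. So few pairs cannot settle whether pool numbers or codes pair the pools. By pool number, aged replicate 1 and young replicate 5 have no partner, so that block draws the age difference from 3 pairs alone. With the pool number as a replicate block, no member passed, the log2 fold change of Notch1 was -0.086, and those of Hey1, Hey2 and Heyl were -0.49, -1.01 and -0.77. Over all genes, 477 rose and 160 fell as reported, and 14 rose and 2 fell in that fit. With the pool code as a replicate block, 206 rose and 51 fell, and no member passed. No filter on dim probes gave 200 and 45, array weights gave 645 and 320, and leaving out 1 pool gave 260 to 371 and 68 to 159.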
